A study of Emiliania huxleyi with 18 samples.

Results

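Weak UV light was tested on Emiliania huxleyi CCMP3266, a coccolithophore, in cultures harvested on day 10. The comparison set 3 libraries from cultures with weak UV against 3 from cultures under growth light alone, which are 6 of the 18 libraries of the series, chosen by arm and harvest day. All came from an axenic strain, kept as standing cultures in artificial sea water with silicate-free L1 nutrients at 18 °C. The culture volume was 50 ml, the inoculum 330 cells per ml, the photoperiod 16 h with 8 h of darkness, and the growth light 130 µmol photons m-2 s-1. The UV arm had in addition a reptile lamp in the growth chamber for 14 h a day, which delivered 0.5 W/m2 (UV-A), 0.07 W/m2 (UV-B) and 0.026 W/m2 (UV-C) inside the flask. The same arms harvested on days 7 and 13, with 6 libraries a day, served to read the day 10 genes in other libraries. The labels number triplicates but do not say that each library was a separate culture, so the p-values measure the spread between these libraries, part of which may be technical.

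Emiliania huxleyi is a single-celled marine alga that covers itself with calcite scales and forms large blooms in the open ocean. UV-B light damages DNA and the photosynthetic apparatus, and algae are known to answer it with DNA repair, screening or quenching compounds and altered expression of photosynthesis genes. A batch culture started from few cells passes from rapid division to a slower, nutrient-limited state, and transcript levels shift widely along that course. The files pair the gene identifiers with no name or description, so no gene below can be assigned to one of these processes. Genes are given by the authors' first identifier.

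UMI totals, the counts of distinct tagged molecules, were 1648083 to 5420491 in UV libraries and 1124600 to 7455081 in control libraries on day 10. Replicates 1 and 2 of both arms were shallow, with 1124600 to 1699470 UMIs, and replicate 3 of both arms was deep. The shallow libraries also held 0.870 to 0.876 UMIs per read, against 0.716 in the deep UV and 0.707 in the deep control library. Depth was therefore a block in the fit, with both arms equally represented in each block. Levels are CPM, UMI counts brought to a common library size with TMM scaling, and are relative to the rest of each library's RNA. In such bulk libraries fewer expressing cells and less RNA per cell cannot be told apart.

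Over all 6 libraries, weak UV went with more lower than higher transcripts on day 10. Within the shallow libraries alone, the only block with more than 1 library per arm, 28 genes rose and 21 fell, so the excess of falls was not seen there. Of 18196 genes tested, 388 fell (2.13%) and 146 rose (0.802%), together 534 genes (2.93%) with an adjusted p under 0.05 in edgeR's quasi-likelihood test with the depth block. Most changes were small. The median log2 fold change was -0.71 over the 388 falls and 0.61 over the 146 rises, and the median over all genes tested was 0.01. Only 82 falls (0.451% of the genes tested) and 32 rises (0.176%) reached 2-fold. Among the 388 falls, 332 had every UV library below every control library, and 132 of the 146 rises had every UV library above every control library. Over all genes tested, 1446 (7.95%) lay below without overlap and 1348 (7.41%) above. The falls and rises were called from these same libraries, which favours such separation. The count of calls rested on few libraries: it was 198 without control replicate 2 and 329 without UV replicate 1. It was 53 without the deep UV library and 53 without the deep control library. With either gone, the other only sets the depth term. Both runs, here and below, are thus the same comparison of the shallow libraries.

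G33518 and G40889 were the named rises, with the smallest p-values among genes that rose at least 2-fold and had a mean of at least 20 UMIs and no overlap of the arms within a depth block. G33518 stood at 275, 313 and 322 CPM in UV replicates 1, 2 and 3 and at 138, 124 and 128 CPM in control replicates 1, 2 and 3. The lowest UV library was 2-fold above the highest control library, and neither arm showed a gap between shallow and deep libraries larger than the gap between arms. Its log2 fold change was 1.23 with SE 0.11 (edgeR adjusted p = 5.85e-09). G40889 had 15.2, 19.2 and 15.8 CPM in UV libraries, against 0, 3.30 and 2.44 CPM in control libraries. No UV library came near the control range. The log2 fold change was 2.82 with SE 0.29 (edgeR adjusted p = 1.56e-07). Both passed within the shallow libraries alone, within the deep libraries alone and in each of the 18 alternatives that were run.

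G26718 and G7567 were the named falls, chosen by the same rule, which asks for no overlap of the arms within a depth block. G26718 had 15.2, 12.6 and 8.06 CPM in UV libraries, against 30.9, 24.4 and 27.8 CPM in control libraries. The groups did not overlap, and the deep UV library was the lowest of the 6. The log2 fold change was -1.39 with SE 0.20 (edgeR adjusted p = 8.84e-05). G7567 had 4.10, 3.61 and 5.86 CPM in UV libraries, against 11.5, 11.9 and 19.8 CPM in control libraries, again without overlap, with the deep library highest in each arm. Its log2 fold change was -1.70 with SE 0.27 (edgeR adjusted p = 0.000322). A second identifier in the files is the same for 2 genes here, so the value of G7567 is uncertain. Neither fall passed within the shallow libraries (edgeR adjusted p = 0.142 for G26718 and 0.195 for G7567), where the log2 fold changes were -0.97 and -1.59. Leaving out either deep library, which leaves that same shallow comparison, gave no pass either. In the authors' deposited table the 4 genes had log2 fold changes of 1.22, 2.85, -1.35 and -1.70 in the order given.

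**Figure D1:**
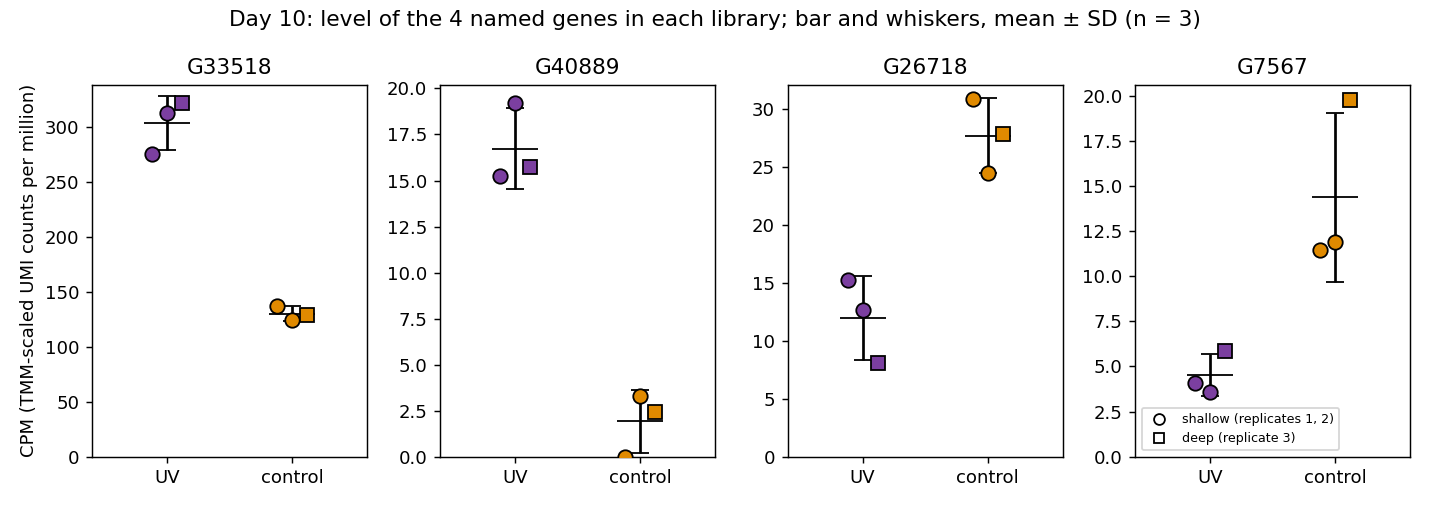
Level of G33518, G40889, G26718 and G7567 in each day 10 library, in CPM on linear axes that start at 0. Circles are the shallow replicates 1 and 2, squares the deep replicate 3, and bars with whiskers the mean ± SD (n = 3). UV and control libraries do not overlap for any of the 4 genes, which the rule that named them favours, since it asks for no overlap within a depth block.

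A few genes were detected in 1 arm only. G8314 had 7, 7 and 13 UMIs in UV libraries and 0 in every control library (edgeR adjusted p = 0.000607). With 3 UMIs allowed over the control group and the UV sum taken as counted, it was 10.4-fold higher under UV. On day 13 it was abundant under UV, at 46.6, 66.2 and 51.2 CPM, against 3.85, 2.21 and 3.76 CPM in control libraries. On day 7 its UV sum was 0 UMIs and its control sum 1, so this gene was seen almost only from day 10 on. G5244 had 0 UMIs in every UV library on day 10 and 2, 7 and 16 UMIs in control libraries (edgeR adjusted p = 0.0361). It was 7.21-fold lower under UV with 3 UMIs allowed over the UV group. By the same floor G1568, with a UV sum of 6 UMIs and a control sum of 0, was 2.31-fold higher under UV. G10846, with a UV sum of 0 and a control sum of 12, was 3.46-fold lower. Both were too low to be fitted. All these folds leave out the counting error of the arm with UMIs, so they are not lower bounds. The genes were also picked for being empty in 1 arm. Of the 41734 genes listed, 17 had UMIs in all 3 UV libraries and 0 in the control libraries, and 39 had the opposite pattern. By comparison, 17398 had UMIs in all 6 libraries and 15713 in none of them. Detection depends on UMI totals, which differed between the libraries of the arms, and the difference between 17 and 39 was not tested. G8314 did not pass within the shallow libraries (edgeR adjusted p = 0.0892), and G5244 passed in 8 of the 15 alternatives that tested it (adjusted p 6.46e-05 to 0.339 over them, by edgeR, limma or DESeq2).

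The UV difference was read separately in the shallow and the deep libraries. Within the 4 shallow libraries 28 genes rose (0.154% of genes tested) and 21 fell (0.115%), together 0.269%. Within the 2 deep libraries 31 rose (0.17%) and 179 fell (0.984%), together 1.15%. The shallow count of 49 was 14 without UV replicate 1, 22 without UV replicate 2 and 11 without control replicate 2. The deep fit has 1 library per arm, whose spread is taken to be that of the other groups. The 2 sets have no library in common, and calls from 1 set were therefore read in the other. They do share 1 fit, with its scaling, filter and estimate of spread. Of the 179 deep falls, 176 (98.3%) were also below 0 in the shallow libraries, where 49.8% of all genes were. Of the 28 shallow rises, 24 (85.7%) were above 0 in the deep libraries, against 52.1% of all genes. For the 31 deep rises and the 21 shallow falls the same sign was seen for 29 and 20 genes. The size was smaller when read in the other libraries: the deep falls had a median log2 fold change of -1.04 in the deep and -0.54 in the shallow libraries. The difference between the 2 depth blocks was also tested. It passed for 0 genes by edgeR, and likewise for 0 by DESeq2 and 0 by limma. By edgeR 856 of 18196 genes had an unadjusted p under 0.05. That share is below the 0.05 expected with no difference. A count of 0 does not show that the blocks acted alike.

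**Figure D2:**
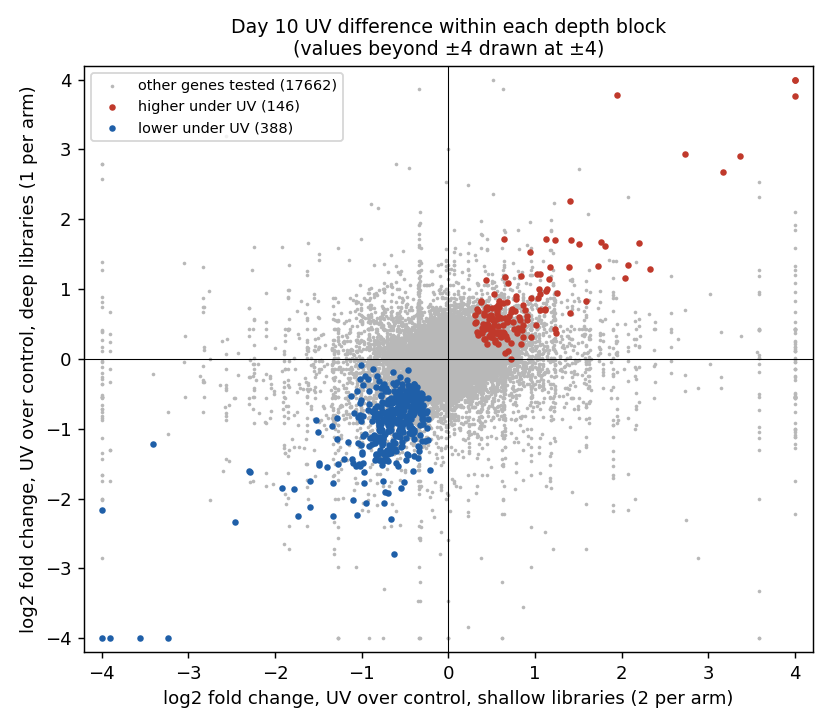
Log2 fold change of UV over control within the shallow libraries (horizontal, 2 libraries per arm) and within the deep libraries (vertical, 1 per arm), 1 point per gene. Red points are the 146 rises, blue points the 388 falls and grey points all other genes tested. All falls lie below 0 on both axes, and all rises but 1 lie above 0 on both, which the choice of these genes from the same libraries favours.

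Among genes with a mean of at least 20 UMIs in the block, those with the smallest p-values were mostly not shared. G5668 rose within the shallow libraries, at 22.8 and 19.8 CPM under UV and 2.65 and 3.96 CPM in control, with a log2 fold change of 2.64 (edgeR adjusted p = 0.00194). In the deep libraries it had 15.9 CPM under UV and 13.0 CPM in control, and it did not pass over all 6 libraries (edgeR adjusted p = 0.108). Like G7567 it has a second identifier in common with 1 other gene. G1349 fell within the shallow libraries, at 166 and 175 CPM under UV and 367 and 324 CPM in control (edgeR adjusted p = 0.000274), against 184 and 196 CPM in the deep libraries. G30042 behaved likewise, at 127 and 103 CPM under UV and 251 and 196 CPM in control (edgeR adjusted p = 0.00194), against 122 and 144 CPM in the deep libraries. For each of these 3 genes it was the deep control library that lay closer to the UV libraries than the shallow control libraries did, and the difference between blocks itself had an edgeR adjusted p of 0.638 to 1. 4 genes share the second identifier of G1349, which leaves its value uncertain too. Within the deep libraries G749 rose, at 22.2 CPM under UV and 4.61 CPM in control (edgeR adjusted p = 5.60e-05), and G31359 fell, at 71.1 CPM under UV and 171 CPM in control (edgeR adjusted p = 0.000967). In the shallow libraries G749 had 19.3 and 18.6 CPM under UV and 7.94 and 6.60 CPM in control, and G31359 had 100.2 and 94.3 CPM under UV and 114 and 168 CPM in control, so in both the arms lay the same way there without overlap, without passing (edgeR adjusted p = 0.0682 for G749 and 0.166 for G31359). By the same minimum, G33518 had the smallest p-value among the rises of the shallow block and the next smallest after G749 among those of the deep block, and G26718 the smallest among the falls of the deep block.

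The day 10 falls were then read in the libraries of days 7 and 13, which the day 10 comparison does not use but which share its fit and estimate of spread. On day 7, 381 of the 388 falls (98.2%) were below 0, against 54.2% of all genes tested, with a median log2 fold change of -0.43. Of the 388, 168 were called lower on day 7 (43.3%), where 2.31% of all genes were called lower and 2.63% called in all, and these 168 were 40.0% of the 420 genes called lower on day 7. On day 13 the sign was mostly the other one: 285 of the 388 (73.5%) were above 0, against 49.2% of all genes, with a median of 0.24. There 55 (14.2%) were called higher and 7 (1.80%) lower. Over all genes 1.79% were called higher, 0.445% lower and 2.23% in all, so both shares of the falls were above those of all genes. Without the deep UV or without the deep control library of day 10, 40% of the 25 falls then called were above 0 on day 13, and 100% of them were below 0 on day 7. The falls had a median level of 45.1, 47.8 and 41.9 CPM in UV and 67.0, 75.9 and 73.1 CPM in control libraries on day 10. That median was 93.1, 104 and 104 CPM under UV and 137, 149 and 120 CPM in control on day 7, and 25.2, 31.6 and 25.01 CPM under UV and 20.1, 22.7 and 24.3 CPM in control on day 13. UV libraries thus lay below all control libraries on days 7 and 10 and above them on day 13, while the level went down with age in both arms.

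Most rises were also above 0 on the other days. Of the 146 rises, 118 (80.8%) were above 0 on day 7, against 45.8% of all genes, and 109 (74.7%) on day 13, against 49.2% of all genes, with median log2 fold changes of 0.17 and 0.21. On day 7, 20 were called higher (background 0.324%) and 1 lower, and on day 13, 45 were called higher (background 1.79%) and 0 lower. The median level of the rises was 57.1, 59.2 and 54.2 CPM in UV and 34.4, 35.0 and 37.0 CPM in control libraries on day 10. On day 7 it was 43.1, 41.2 and 40.7 CPM under UV and 35.0, 34.2 and 36.6 CPM in control, and on day 13 59.0, 60.7 and 55.3 CPM under UV and 43.7, 42.4 and 42.2 CPM in control. The UV libraries were above all control libraries on each day. Called higher on all 3 days were 12 genes, and 1 gene was called lower on all 3. A further 33 genes were called lower on days 7 and 10 and higher on day 13. They were 8.51% of the day 10 falls and 56.9% of the 58 genes lower on day 7 and higher on day 13.

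The calls of the other days depended on scaling and on single libraries. On day 7, 420 genes were lower and 59 higher, but 60 were lower and 130 higher when libraries were scaled by their totals alone, under which the median over all genes was 0.12, against -0.02 with TMM. The day 7 total of 479 was 260, 150 and 210 without UV replicates 1, 2 and 3 of that day, and 207, 111 and 773 without control replicates 1, 2 and 3. The day 13 total of 406 was 159 without UV replicate 2, 238 without control replicate 1 and 193 without control replicate 2 of that day. Under total-count scaling 96.2% of the day 10 falls then called were still below 0 on day 7.

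**Figure D3:**
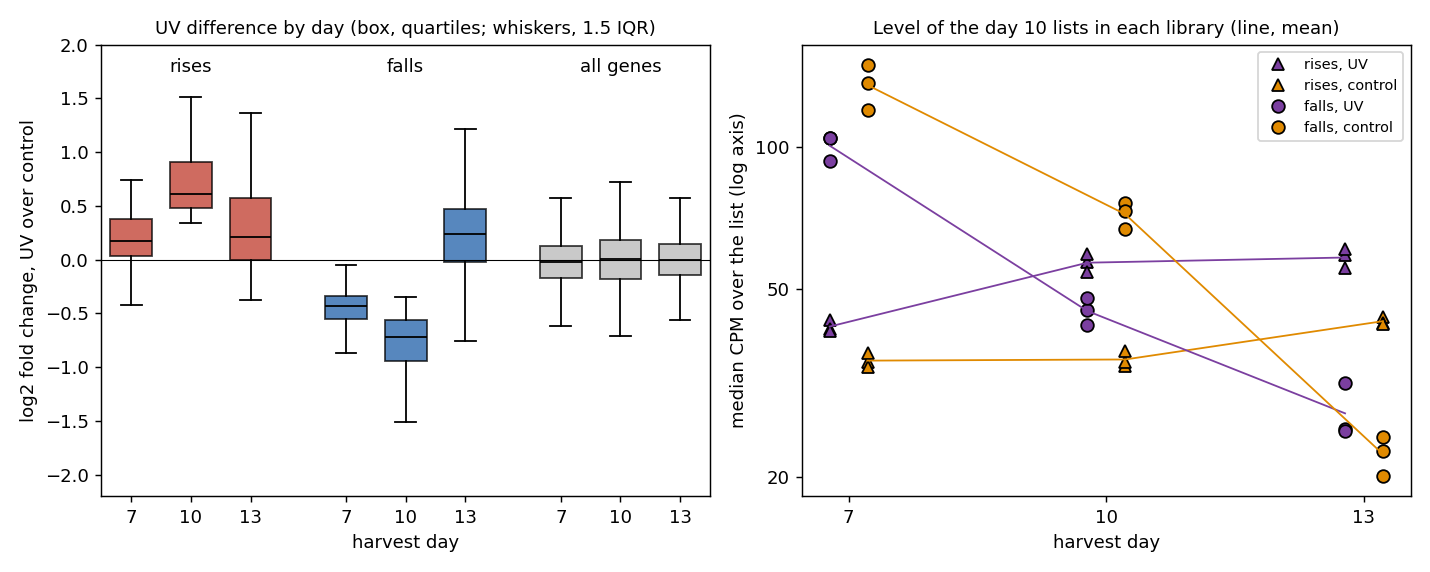
Left, log2 fold change of UV over control on days 7, 10 and 13 for the day 10 rises, the day 10 falls and all genes tested (boxes, quartiles; line, median; whiskers, 1.5 interquartile ranges, points beyond not drawn). Right, median CPM over each list in every library on a log axis, UV drawn left and control right of each harvest day, with lines through the group means. The median of the falls is below control on day 10 and above it on day 13, and the medians of the rises stay above control.

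Single genes were also read on the other days. G33518 had 197, 165 and 179 CPM in UV and 130, 137 and 109 CPM in control libraries on day 7, and 357, 374 and 358 CPM under UV and 183, 146 and 174 CPM in control on day 13. UV libraries were above all control libraries on both days, with log2 fold changes of 0.51 and 1.11 (edgeR adjusted p = 0.00505 and 1.35e-09). G40889 had 4.01, 4.04 and 3.14 CPM in UV and 0.788, 0.654 and 0.665 CPM in control libraries on day 7, and 150, 172 and 150 CPM under UV and 47.6, 34.8 and 40.9 CPM in control on day 13. Every day 13 library was above every day 7 library, and the gene was called higher under UV on each day, with log2 fold changes of 2.30 on day 7 and 1.94 on day 13 (edgeR adjusted p = 0.0018 and 7.3e-15). G749 had 58.4, 67.7 and 59.8 CPM in UV and 17.8, 15.5 and 16.5 CPM in control libraries on day 13, again far apart. G26718 had 48.1, 38.3 and 49.2 CPM in UV and 75.05, 66.5 and 66.3 CPM in control libraries on day 7, and 1.65, 2.16 and 0.732 CPM under UV and 1.92, 2.55 and 1.61 CPM in control on day 13. It was called lower under UV on day 7 (edgeR adjusted p = 0.00393) and not on day 13 (edgeR adjusted p = 0.81), when it was under 3 CPM in every library.

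Among the genes called on all 3 days, G296 had 30.5, 24.6 and 11.5 CPM in UV libraries on day 10, against 3.53, 4.62 and 1.49 CPM in control libraries. Its UV difference was 2.26 on the log2 scale on day 7, 2.82 on day 10 and 3.78 on day 13 (edgeR adjusted p = 0.00777, 0.000137 and 2.86e-12), and it passed on day 10 in all 18 alternatives. G41568 had 32 UMIs over the UV and 2 over the control libraries on day 10 (8, 2 and 22 against 0, 0 and 2), too few in control for a fitted fold, and did not pass within either depth block. G13090 was the gene lower on all 3 days. It had 9.96, 10.8 and 15.4 CPM in UV and 14.1, 27.1 and 27.5 CPM in control libraries on day 10, where the deep UV library lay above the lowest control library, with log2 fold changes of -0.64, -0.91 and -0.76 on days 7, 10 and 13 (edgeR adjusted p = 0.0186, 0.00561 and 0.0104). It did not pass on day 10 in 6 of 18 alternatives.

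Whether the UV difference itself differed between days was tested directly. For day 10 minus day 13 edgeR's quasi-likelihood test called 551 genes (3.03%), of which 476 (2.62%) were more negative and 75 (0.412%) more positive on day 10. These included 241 of the 388 falls and 28 of the 146 rises, which were chosen on the day 10 difference that this test contains. The count was 191 without the deep UV or without the deep control library of day 10, which both leave the shallow comparison. It was 309 without UV day 13 replicate 2. Day 10 minus day 7 gave 2 genes (0.011%), G30571 and G5644, both more positive on day 10. An unadjusted p under 0.05 was seen for 1111 of 18196 genes, a share somewhat above 0.05. At the adjusted threshold limma gave 8 and DESeq2 17. By edgeR the number was 6 without the deep UV or without the deep control library of day 10, which both leave the shallow comparison. It was also 6 without control day 7 replicate 3. It was 1 without replicates 1 or 2 of any of UV day 7, control day 7 or UV day 10.

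G13865 and G9543 had the smallest p-values among genes with a mean of at least 20 UMIs whose UV difference was more negative on day 10 than on day 13. G13865 had 4.69, 6.61 and 2.75 CPM in UV and 10.6, 11.2 and 11.5 CPM in control libraries on day 10. On day 13 it had 5.51, 7.92 and 4.15 CPM under UV and 0.699, 1.19 and 1.08 CPM in control, so UV libraries stood below all control libraries on day 10 and above all on day 13. The difference between the days was -4.11 on the log2 scale with SE 0.45 (edgeR adjusted p = 9.78e-07). G9543 did not pass on day 10 itself (log2 fold change -0.57, edgeR adjusted p = 0.0796), and its difference between the days was -2.21 with SE 0.24 (edgeR adjusted p = 1.03e-06). G8598 was more positive on day 10. It had 9.37, 14.4 and 22.5 CPM in UV and 0.882, 1.32 and 2.98 CPM in control libraries on day 10, and 30.9, 32.0 and 48.1 CPM under UV and 34.5, 23.1 and 22.9 CPM in control on day 13, where the groups overlapped. Its difference between the days was 2.52 with SE 0.42 (edgeR adjusted p = 0.000556). G40140 had 247, 227 and 221 CPM in UV and 164, 187 and 101 CPM in control libraries on day 10, and 187, 167 and 164 CPM under UV and 217, 190.0 and 184 CPM in control on day 13, where the groups overlapped. Its difference between the days was 0.88 with SE 0.16 (edgeR adjusted p = 0.000615). G8598 and G40140 did not pass without either deep library of day 10, which leaves the shallow comparison (edgeR adjusted p 0.123 to 0.128 for G8598 and 0.0545 to 0.0549 for G40140).

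Both genes that differed from day 7 had UV libraries below all control libraries at that age. G30571 had 70.3, 61.3 and 64.8 CPM in UV and 43.2, 44.9 and 38.1 CPM in control libraries on day 10, and 79.1, 51.6 and 74.3 CPM under UV and 137, 96.4 and 108 CPM in control on day 7. UV libraries were above all control libraries on day 10 and below all on day 7. The difference between the days was 1.45 with SE 0.20 (edgeR adjusted p = 0.000741) and passed in all 22 alternatives. It has a second identifier in common with 1 other gene, so its value is uncertain. G5644 had 187, 223 and 213 CPM in UV and 163, 118 and 144 CPM in control libraries on day 10, and 98.2, 120 and 123 CPM under UV and 150.5, 160.2 and 159 CPM in control on day 7. Its difference of 0.99 with SE 0.18 (edgeR adjusted p = 0.0488) did not pass in 17 of 22 alternatives.

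The change with culture age was taken from control libraries of days 7 and 13, none of which enters the day 10 comparison. Of 18196 genes, 10598 (58.2%) differed, 4991 (27.4%) lower and 5607 (30.8%) higher in control day 13 than in control day 7. With library totals alone as the scaling, 2970 were lower and 10113 higher. Among the 388 falls, 333 (85.8%) were lower with age, 315 of them at least 2-fold, and 26 (6.70%) were higher, with a median log2 age difference of -2.82. Among the 146 rises, 81 (55.5%) were higher with age and 27 (18.5%) lower, with a median of 0.41, against 0.07 over all genes tested. Scaling by library totals moved the median age difference of all genes to 0.46, and 84.4% of the falls called under it were then lower with age.

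Seen from the change with age, genes that went down steeply with age were those most often lower under UV on day 10. Of the 2331 genes at least 2-fold lower on control day 13, 315 fell under UV on day 10 (13.5%, against 2.13% of all genes) and 8 rose. The median day 10 UV difference of these 2331 genes was -0.32, with quartiles of -0.61 and -0.04. Among the 2660 genes lower with age by less than 2-fold, 18 fell under UV (0.677%), and the median UV difference was -0.01. Of the 1496 genes at least 2-fold higher with age, 25 rose (1.67%) and 19 fell (1.27%).

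**Figure D4:**
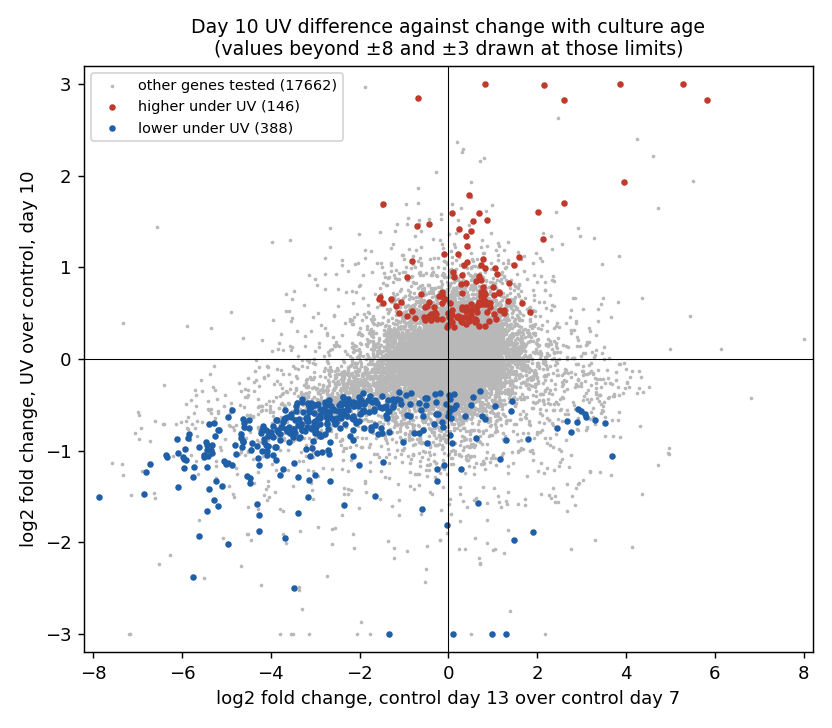
Log2 fold change of UV over control on day 10 (vertical) against that of control day 13 over control day 7 (horizontal), 1 point per gene, with the 146 rises in red, the 388 falls in blue and all other genes tested in grey. Most blue points lie on the left, where 333 of the 388 falls were called lower with age.

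The falls called within each block were also read against culture age. Of the 179 falls within the deep libraries, 173 (96.6%) were lower with age. Of the 21 falls within the shallow libraries 6 (28.6%) were lower and 12 (57.1%) higher with age, G1349 and G30042 among the latter. Over all genes tested 27.4% were lower and 30.8% higher with age, so the shallow share of 28.6% was near that of all genes. The lists differ in length, the deep one rests on 1 library per arm, and the difference between the lists was not tested. Without the deep UV or without the deep control library, 40% of the 25 falls then called were lower with age. Over the 2331 genes with a steep age decline, called or not, the median UV difference was -0.21 in the shallow and -0.41 in the deep libraries. The median level of these genes was 15.8, 16.2 and 15.8 CPM in UV and 16.8, 19.8 and 20.3 CPM in control libraries. All UV libraries were below all control libraries, but shallow control replicate 1 lay closer to the UV libraries than to the other control libraries.

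The share of genes called was higher in the classes of higher CPM from 1 CPM upward. The classes differ in counting precision as well as in level. Over 100 CPM, 142 of 1746 genes fell (8.13%) and 36 rose (2.06%), with a median SE of 0.11 on the log2 scale. From 10 to 100 CPM, 222 of 10800 fell (2.06%) and 91 rose (0.843%), and from 1 to 10 CPM, 22 of 5570 fell (0.395%) and 18 rose (0.323%), with a median SE of 0.39. Under 1 CPM, 2 of 80 genes fell (2.5%) and 1 rose (1.25%), shares above those of the 1 to 10 CPM class. Within the same CPM class the steeply age-declining genes were still called lower more often than the others. The counts were 119 of 399 (29.8%) against 23 of 1347 (1.71%) over 100 CPM. From 10 to 100 CPM they were 182 of 1133 (16.1%) against 40 of 9667 (0.414%). The classes are wide and use the mean over all 18 libraries, so abundance was not equal within them.

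**Figure D5:**
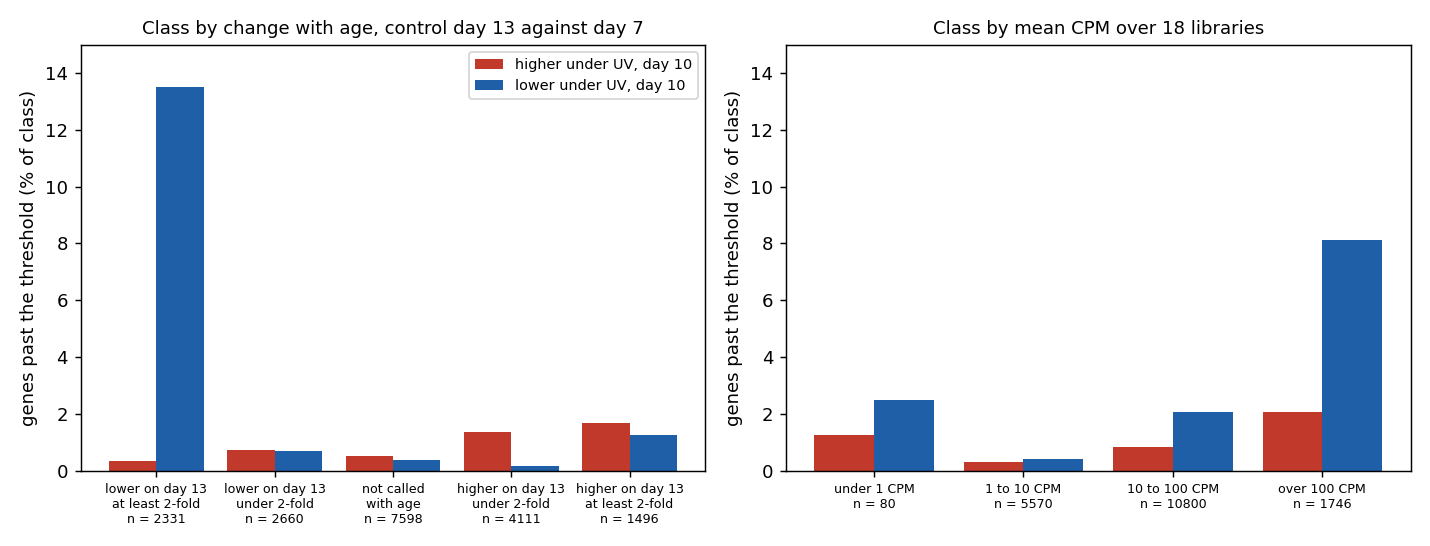
Percentage of genes past the threshold on day 10 in classes of change with culture age (left) and of mean CPM (right), higher under UV in red and lower under UV in blue, with the number of genes tested below each class. Falls reach 13.5% among genes at least 2-fold lower with age and 8.13% among genes over 100 CPM.

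The authors' deposited table of the same libraries called 401 genes on day 10, of which 321 were lower and 80 higher. The 534 genes called here included 373 of them, and all 373 had the same direction. Both sets of calls come from the same libraries.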

How the data were processed

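MARS-seq2.0 libraries, which tag each captured transcript with a molecular identifier, were made from total RNA, per the labels' protocols. The authors deposited raw UMI counts and raw read counts per gene. For these, aligner, counting tool, build and annotation: not given in the sources used here. The authors' deposited table of DESeq2 comparisons, named per the file headers, gave log2 fold changes and adjusted p-values for day 10, and its 54 columns of values per library were not used. None (0) of the 41734 identifiers matched the reference gene table, so the planned gene lists by function were not run and no sequence is shown.

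UMI counts of all 18 libraries entered 1 fit (edgeR 4.0.16 in R 4.3.3, TMM scaling, filterByExpr with a minimum count of 10 and minimum total of 15, 18196 genes kept, holding at least 99.74% of each library's UMIs), with a mean per group and a term for the shallow libraries of day 10. Quasi-likelihood F-tests, two-sided, were adjusted by Benjamini-Hochberg over all genes, with a threshold of 0.05. The SE is the log2 fold change divided by the root of F. Day 10 UMI totals of 1124600 to 7455081 set the precision, and floors of 3 UMIs over a group cover only the counting error of the empty arm. The pipeline was tested on simulated counts.

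Per comparison at most 2 genes are named in each direction, since identifiers have no names: the smallest p among called genes that average 20 UMIs or more (for day 10 also 2-fold or more, with UV and control apart within each depth block), the genes called on all 3 days whose smallest change was largest, and the highest UMI sums in 1 arm. The comparison and these rules were chosen with earlier results of these data known. Alternatives were other scalings, no filter, limma 3.58.1, DESeq2 1.42.0, read counts, other blocks, subsets, equal depth and leaving out each library.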

Additional observations from a re-analysis of the deposited data

Results flagged for a closer look

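The UV difference of 8 named genes on day 10 differed, by the test of the difference itself (edgeR's quasi-likelihood test), from that on another day. G30571 and G5644 were named for passing this test against day 7, and G13865, G9543, G8598 and G40140 for passing it against day 13. Those passes were thus set by the choice. G7567 and G31359 were chosen on the day 10 difference, which the test contains. Against day 13 the difference between the days on the log2 scale was -2.79 for G7567 (edgeR adjusted p = 3.34e-05), -0.893 for G31359 (edgeR adjusted p = 0.0142), -4.11 for G13865, -2.21 for G9543, 2.52 for G8598, 0.882 for G40140 and 0.680 for G5644 (edgeR adjusted p = 0.0285). G7567 had 6.34, 8.64 and 4.88 CPM in UV and 2.62, 3.06 and 3.76 CPM in control libraries on day 13, so UV libraries were above control there and below control on day 10. G31359 had 28.7, 34.2 and 26.4 CPM in UV and 28.3, 27.4 and 31.1 CPM in control libraries on day 13, where the groups overlapped. Against day 7 the difference was 1.45 for G30571 and 0.990 for G5644. G5644 is thus the only named gene whose day 10 difference passed against both other days.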

How the results depend on the processing

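Of 374 values of named genes under an alternative, 321 stayed on the same side of the threshold, 53 lost significance and none (0) reversed. The named genes were chosen for passing in these same libraries, which favours an unchanged direction. The 534 day 10 calls became 545 with median-of-ratios scaling, 483 (170 higher, 313 lower) with total-count scaling, 587 with DESeq2, 1251 with limma, 821 without the low-count filter, 410 with read counts, 460 without the depth block, 658 with only the day 10 libraries, 326 at equal depth, 49 within the shallow and 210 within the deep libraries, and 53 to 575 with 1 library left out.

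For day 10 minus day 7 (2 genes) the count was 1 with median-of-ratios scaling, total-count scaling and read counts, 54 without the filter, 8 with limma, 17 with DESeq2, 6 within the shallow libraries, and 1 to 6 with 1 library left out. Day 10 minus day 13 (551) gave 190 within the shallow libraries and 191 to 675 with 1 library left out. Without the filter the difference between depth blocks gave 7 genes, the shallow comparison 238, the deep one 453, day 7 925 and day 13 681. DESeq2 gave 125 in the shallow comparison, and total-count scaling 190 on day 7. With 1 library left out these counts ran from 0 to 1 for the depth blocks, 11 to 53 for shallow, 189 to 228 for deep, 111 to 773 for day 7 and 159 to 559 for day 13. The depth-block difference could not be fitted without a deep library.

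Of the falls, 85.8% were lower with age, 81.2% with limma (81.15) and 81.22% at equal depth, and 40% to 91.54% with 1 library left out. Falls below 0 on day 7 (98.2%) were 96.17% with total-count scaling, 94.23% with limma and 97.73% to 100% with 1 library left out. Falls above 0 on day 13 (73.5%) ran from 40% to 77.7%. Rises above 0 on day 7 (80.8%) were 90.59% with total-count scaling, 71.76% with limma and 74.52% to 87.72% with 1 library left out. Rises above 0 on day 13 (74.7%) were 64.76% with limma and 64.83% to 78.95% with 1 library left out. The cause of these shifts was not tested, except that subsets hold fewer libraries.

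With the replicate number as a block in place of depth, 544 genes were called on day 10 and 1 for day 10 minus day 7. Deviations of same-numbered libraries correlated at 0.0476, 0.0308 and 0.23, the last for the deep pair. UV replicate 1 correlated at 0.0481 with control replicate 2, and UV replicate 2 at 0.0386 with control replicate 1. Beyond the depth block no pairing by number was thus seen. Depth limits genes under 10 CPM, where the median SE was 0.391 from 1 to 10 CPM.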

Other observations

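Of the 10 genes with the highest mean CPM on day 10 none (0) was called in edgeR's quasi-likelihood test, with log2 fold changes from -0.15 to 0.14. They held 7.68%, 6.90% and 7.54% of the scaled UMIs in UV and 7.15%, 7.47% and 7.23% in control libraries. Of the first 100 genes 2 rose and 1 fell, and of the first 1000, 24 rose and 59 fell, with log2 fold changes from -1.81 to 1.23 over these 1000. Over all genes tested 0.802% rose and 2.13% fell.

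On the first principal component of log2 CPM over the day 10 libraries (29.5% of the variance), UV replicates 1, 2 and 3 scored -22.6, -23.2 and -15.7 and control replicates 61.8, 4.15 and -4.49. The shallow pair correlated at r = 0.957 across genes under UV and 0.944 in control, and genes are not independent replicates there. The chi-square of the counts per degree of freedom was 1.90 for that pair under UV and 1.74 in control, where 1 is counting noise alone, and up to 3.10 for the other pairs, so every pair of replicates differed by more than counting noise.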
